A study of Mus musculus with 6 samples.

Results

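Potassium, calcium and transient receptor potential (TRP) channel genes were examined in primary mouse hepatic stellate cells, which are liver pericytes that store vitamin A. Members were the rows of the deposited exon count table whose gene symbol begins with Kcn and ends in a number, or begins with Cacna, Cacnb or Cacng, or with Trpc, Trpm or Trpv, followed by a number. The rule took 141 of 24940 rows: 92 potassium channel genes, 26 calcium channel genes, 21 TRP channel genes and 2 rows that are not channels. The latter are Trpc4ap, which encodes a TRPC4-associated protein of a ubiquitin ligase complex, and Trpc5os, a transcript opposite Trpc5. Female C57BL/6JBomTac mice were the source of the cells. From 2 days after isolation they were kept for 6 hours with 10 µM obeticholic acid (OCA), an agonist of the bile acid receptor FXR, or with its vehicle DMSO, and each group has 3 libraries, A, B and C. All cells were of 1 strain and sex and carried no engineered allele that the labels name; no age is given. Whether replicate libraries trace back to different mice or dishes is not stated, so the p-values reflect the spread among the 6 libraries, part or all of which may be technical.

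Potassium channels set the resting membrane potential of contractile cells, and their opening hyperpolarises the cell and lowers calcium entry through voltage-gated calcium channels. A voltage-gated calcium channel has a pore-forming alpha1 subunit with alpha2delta and beta subunits that aid its trafficking and gating. TRP channels are mostly non-selective cation channels that respond to lipids, stretch, temperature or intracellular calcium. Pericytes are known for channels gated by ATP, in which the pore protein encoded by Kcnj8 joins a sulfonylurea receptor encoded by Abcc9.

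The 6 libraries held between 12260882 and 16336240 counts. Levels in CPM, counts divided by each library's scaled total, are given as mean ± SD (n = 3 libraries a group), and levels of different genes are compared as CPM per kilobase of exonic length. Stellate cell markers were abundant, with summed levels of 3137 to 3481 CPM in DMSO and 2707 to 3452 CPM in OCA over 12 genes. Of these, 1 was called higher and 2 lower (25%, beside 5.20% of all tested genes). In any library, 6 endothelial markers summed to at most 1.95 CPM and 6 neuronal and glial markers to at most 2.20 CPM. Hepatocyte markers summed to at most 5.93 CPM and macrophage markers to at most 11.4 CPM. Smooth muscle markers were abundant as a sum, with 6 genes at 1327 to 1592 CPM in DMSO and 1525 to 1584 CPM in OCA. Of these, 5 were tested and none called, and the other had 31 counts over the 6 libraries. Des is in both the stellate and the smooth muscle list. Which cells the smooth muscle markers came from was not tested. Of 4 lymphocyte markers 3 were at 0 in all libraries. In the fit over all genes, 660 of 12687 tested genes (5.20%) were called by the quasi-likelihood test of edgeR at a Benjamini-Hochberg adjusted p under 0.05, 276 higher under OCA (2.18%) and 384 lower (3.03%). Abcb11, the FXR target that encodes the bile salt export pump, had 0.149 ± 0.0447 CPM in DMSO and 4.88 ± 0.602 in OCA.

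A minority of the member rows had enough counts to be tested, 40 of 141 (28.4%), beside 12687 of all 24940 rows (50.9%). Of the other members, 77 had counts but too few for a test, and 24 had 0 counts in all 6 libraries. Over all rows, 6420 had counts without being tested and 5833 had 0 counts. The 77 rows in between had a median of 4.5 counts over the 6 libraries together and a maximum of 64, and held 1.04% of all member counts. A floor of 3 counts corresponds to between 0.181 and 0.251 CPM in a library, so small changes in these genes could not be measured at this depth. The tested share was highest among calcium channel beta subunits, at 4 of 4. Of these, Cacnb4 had 70 counts over the 6 libraries, near the 64 of the highest untested row. Calcium channel pore subunits had 1 of 10 tested and gamma subunits 1 of 8. Silent voltage-gated potassium channel subunits, which form channels only with other subunits, had 2 of 10 tested and inward rectifiers 3 of 15. The pore subunits of voltage-gated potassium channels had 6 of 30 tested and none at 10 CPM or more. Genes with 0 counts included Kcna1, Kcna4, Kcnd2, Kcnc4, Kcnj1, Kcnj3, Kcnk1, Kcnk9, Kcnk18, Kcnt1, Trpm8 and Trpv3.

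**Figure D1:**
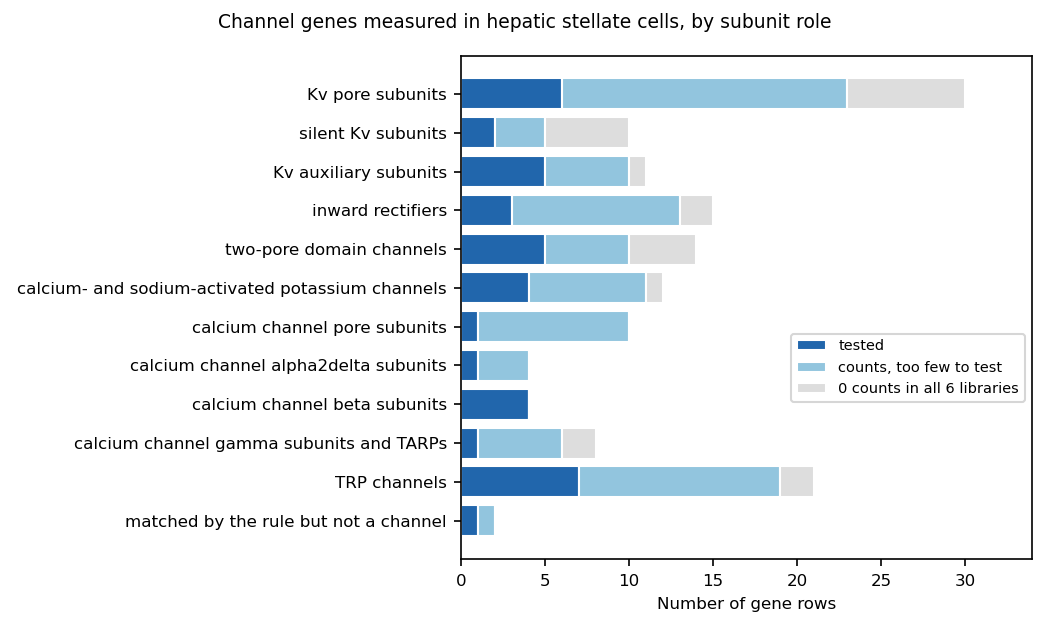
Number of gene rows (horizontal axis) in each subunit role, split into rows tested, rows with counts too few to test and rows with 0 counts in all 6 libraries. Of 141 rows 40 were tested; calcium channel beta subunits had all 4 rows tested, and calcium channel pore subunits 1 of 10.

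By level per kilobase, a few genes made up most of the channel RNA. The 10 highest of 139 channel genes held 79.6% of the summed CPM per kilobase, 8 stood at 10 CPM per kilobase or more, and 21 at 1 or more. Trpv2, a TRP channel gene of the vanilloid family, was the highest at 26.0 CPM per kilobase over the 6 libraries. Trpm7, which encodes a magnesium- and calcium-permeable channel fused to a kinase, followed at 19.0, and Kcnj8 at 16.7. Then came Cacnb3 (13.3), Cacna2d1 (11.9), Kcne4 (11.1), Kcnk5 (11.05) and Kcnip3 (10.8), all per kilobase. Their products are a calcium channel beta subunit, an alpha2delta subunit, an inhibitory subunit of voltage-gated potassium channels, a pH-sensitive background potassium channel and a calcium-binding protein of the KChIP family. Most neighbours in this order could not be separated by their libraries. Among the 20 neighbouring pairs of the 21 highest genes, every library of the first lay above every library of the second in 4 pairs: Trpv2 over Trpm7, Kcnj8 over Cacnb3, Trpm4 over Cacnb2, and Cacna1a over Kcnk6. By CPM without division by length, Trpm7 (7104 exonic bases) and Cacna2d1 (7395) were the highest channel genes and Trpv2 (2733) came after them. Trpc4ap, not a channel, exceeded all channel genes with 65.2 CPM per kilobase in DMSO and 68.2 in OCA.

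**Figure D2:**
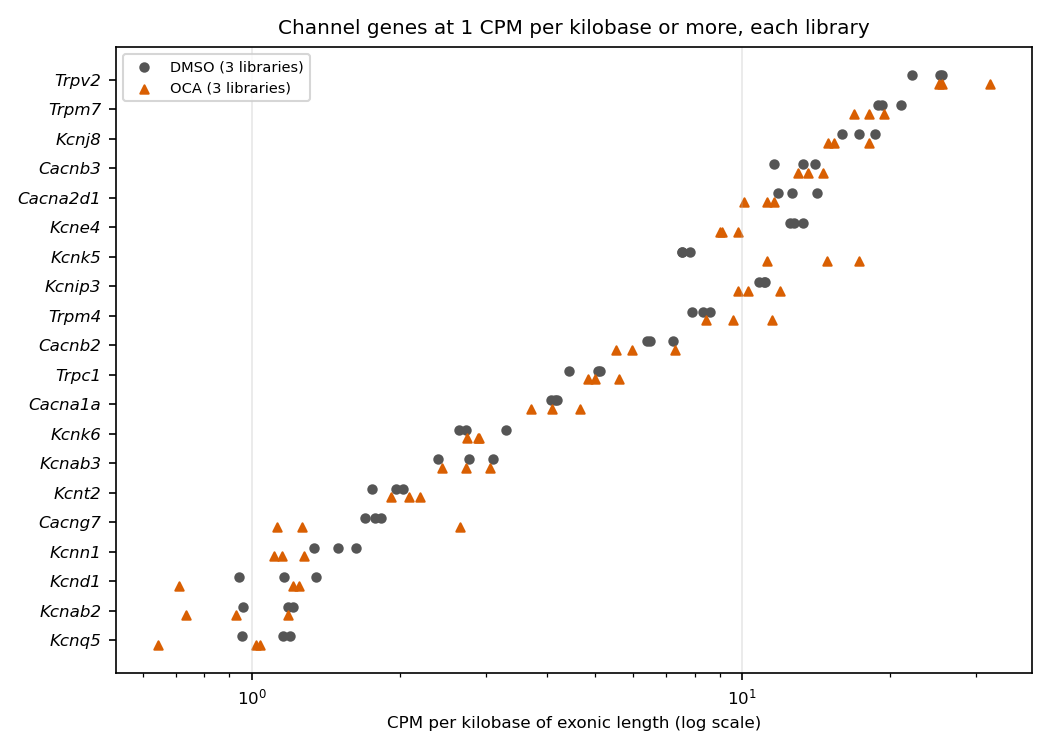
CPM per kilobase of exonic length (log axis) of 20 channel genes at 1 CPM per kilobase or more, one point for each library (circles DMSO, triangles OCA). Trpv2 lies highest; the 2 groups are apart for Kcnk5, Kcne4, Cacna2d1 and Kcnn1.

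Under OCA, 2 members rose and 1 fell among the 40 tested. Kcnk5 and Kcnk3, both background potassium channel genes, were higher, Kcne4 was lower, and 37 were not called. The called members made up 7.50% of those tested, beside 5.20% of all tested genes. In 6 of the 40 members, or 15%, all OCA libraries lay on 1 side of all DMSO libraries, beside 23.0% of all tested genes. The 6 include Kcng2, which entered the test through the DMSO libraries alone. The median log2 fold change was -0.03 over the 40 members and 0.00 over all tested genes, with 17 members above 0 and 23 below. In bulk RNA, a change in the number of cells of a type and a change in RNA per cell cannot be told apart.

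**Figure D3:**
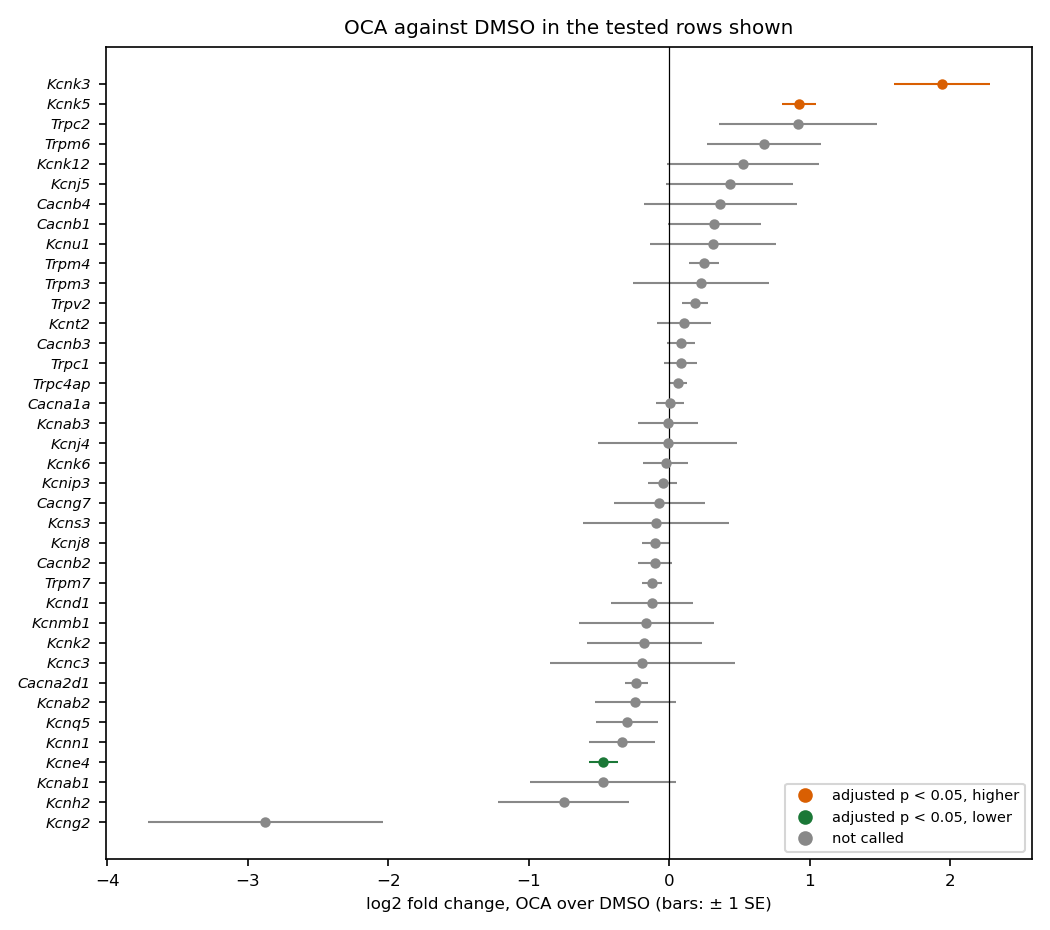
Log2 fold change of OCA over DMSO with its standard error for 38 of the 40 tested rows. Kcnk3 (1.94) and Kcnk5 (0.92) were called higher and Kcne4 (-0.47) lower; the wide bars belong to rows with few counts, such as Kcng2.

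The tandem pore domain family carries leak currents that keep cells near the potassium equilibrium potential, and 5 of its 14 members were tested. Kcnk5 (NM_021542, mm10 chromosome 14, 20140058 to 20181782, minus strand) encodes a channel opened by alkaline pH and known from cell volume regulation. Its CPM in libraries A, B and C were 25.3, 25.3 and 26.3 with DMSO and 57.9, 50.03 and 37.6 with OCA. All OCA libraries lay above all DMSO libraries, which were close together, while the OCA libraries were spread, with A highest and C lowest. The means were 25.6 ± 0.545 and 48.5 ± 10.2 CPM (n = 3 each), a 1.89-fold rise (log2 fold change 0.92, SE 0.12, edgeR adjusted p = 7.91e-05). It ranked 60th by size among the 276 higher genes.

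Kcnk3 (NM_010608, chromosome 5, 30588170 to 30625270, plus strand) encodes an acid-sensitive background channel of pulmonary artery smooth muscle, where loss of its function is a known cause of pulmonary arterial hypertension in humans. Its level was low, with CPM in libraries A, B and C of 1.75, 1.05 and 1.301 with DMSO and 6.53, 3.64 and 5.65 with OCA. The groups did not overlap, and the lowest OCA library stood above the highest DMSO library. It rested on 61.5 counts with DMSO and 206.5 with OCA, a depth-scaled ratio of 3.73 (95% exact counting interval 2.80 to 5.04, for counting error only). The fit gave a log2 fold change of 1.94 (SE 0.34, edgeR adjusted p = 0.00179), the 17th largest among the 276 higher genes. An annotated processed transcript, Gm9899, overlaps 5.76% of the exonic bases of Kcnk3 on the opposite strand; whether reads were counted by strand is not stated.

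The other tested members of the family did not pass. Kcnk6 had 11.8 ± 1.44 CPM in DMSO and 11.6 ± 0.351 in OCA, Kcnk2, the gene of a stretch-activated channel, 2.10 ± 0.912 and 1.90 ± 0.570, and Kcnk12 0.789 ± 0.375 and 1.13 ± 0.437. Summed over the family, the level was 12.2 ± 0.638 CPM per kilobase in DMSO and 19.9 ± 2.80 in OCA, and the lowest OCA library (17.1) lay above the highest DMSO library (12.7). Kcnk5 alone went from 7.63 to 14.5 CPM per kilobase and Kcnk3 from 0.359 to 1.39. Without both genes the sums overlapped, at 3.65 to 4.52 CPM per kilobase in DMSO and 3.71 to 4.39 in OCA. Among markers of other cells, 4 cholangiocyte genes summed to 2.89 to 3.77 CPM in DMSO and 6.83 to 10.9 in OCA. That difference lay almost wholly in Sox9, the only 1 of the 4 called (2.54 ± 0.845 to 7.68 ± 2.43 CPM, edgeR adjusted p = 0.00322). Krt7 had 0 counts, Epcam was at 0.0434 ± 0.0751 CPM in DMSO and 0.0511 ± 0.0885 in OCA, and Krt19 at 0.654 ± 0.461 and 0.719 ± 0.242. The part of such cells in the channel values was not tested.

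**Figure D4:**
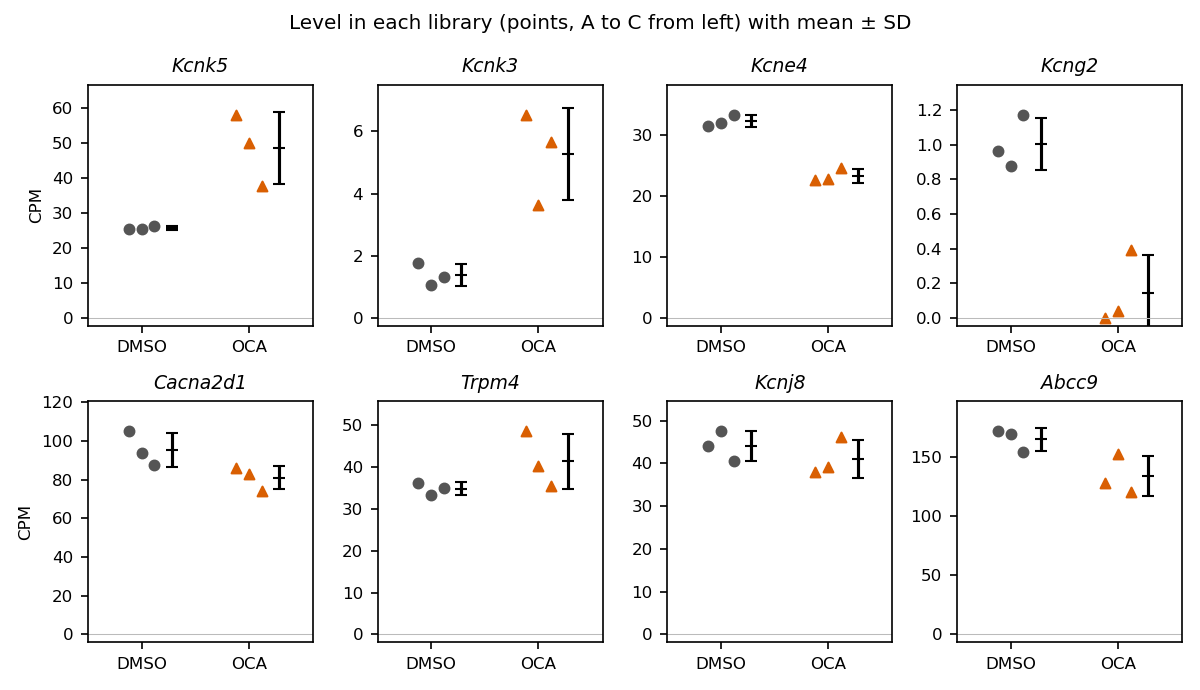
CPM in each DMSO (circles) and OCA (triangles) library with the mean and SD for 8 genes. OCA libraries all lie above DMSO libraries for Kcnk5 and Kcnk3 and all below them for Kcne4, Kcng2, Cacna2d1 and Abcc9; the groups overlap for Trpm4 and Kcnj8.

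Kcne4 (NM_021342, chromosome 1, 78816911 to 78820032, plus strand) encodes a single-pass membrane subunit that reduces the current of several voltage-gated potassium channels, among them those of the KCNQ family. It stood at 31.4, 32.0 and 33.2 CPM in DMSO A, B and C and at 22.5, 22.7 and 24.6 CPM in OCA A, B and C. Both groups were tight and did not overlap. The mean fell from 32.2 ± 0.95 to 23.3 ± 1.13 CPM (n = 3 each; log2 fold change -0.47, SE 0.10, edgeR adjusted p = 0.00962), and without DMSO C the adjusted p was 0.0514. Its possible pore partner gene Kcnq1 had 4.5 counts over the DMSO and 2.5 over the OCA libraries. Kcnq5, a tested gene of that family, stood at 1.00 CPM per kilobase over the 6 libraries, under the 11.1 of Kcne4.

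The other auxiliary subunits did not pass the test. Kcnip3, whose product binds calcium and acts both on A-type potassium channels and as a transcriptional repressor, had 32.1 ± 0.454 CPM in DMSO and 31.1 ± 3.31 in OCA (log2 fold change -0.05, SE 0.10). Its A-type pore partners were low: Kcnd1 had 1.10 CPM per kilobase and Kcnd2 and Kcnd3 did not reach the test. Kcnab3, Kcnab2 and Kcnab1 encode cytoplasmic beta subunits, and Kcnab3 was the highest of them at 2.75 CPM per kilobase. Summed over the auxiliary subunits, the level was 28.3 ± 0.415 CPM per kilobase in DMSO and 24.1 ± 1.48 in OCA, with no overlap between the groups. Without Kcne4 the sums overlapped, at 15.2 to 15.8 CPM per kilobase in DMSO and 13.5 to 15.7 in OCA.

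The promoter sequences of the called genes are shown from RefSeq (GRCm38.p6, the assembly of mm10), from 250 bases before to 50 bases after the annotated start, so that the regions next to a gene that rose and one that fell can be read side by side; Kcnk3 has no entry in the table. The promoters of Kcnj8 and Abcc9 follow, since they encode the partners of 1 channel and lie next to each other in the genome. Capitals mark the GC box GGGCGG on either strand. The regions are chr14:20181733-20182032 (minus strand) for Kcnk5, chr1:78816661-78816960 (plus) for Kcne4, chr6:142571565-142571864 (minus) for Kcnj8 and chr6:142702225-142702524 (minus) for Abcc9.
Kcnk5: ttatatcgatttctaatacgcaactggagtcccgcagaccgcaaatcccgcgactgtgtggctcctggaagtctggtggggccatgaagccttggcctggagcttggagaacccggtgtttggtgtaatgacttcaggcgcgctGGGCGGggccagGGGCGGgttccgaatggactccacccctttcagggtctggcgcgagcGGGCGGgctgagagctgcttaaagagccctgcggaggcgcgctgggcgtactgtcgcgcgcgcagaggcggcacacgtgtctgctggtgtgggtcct
Kcne4: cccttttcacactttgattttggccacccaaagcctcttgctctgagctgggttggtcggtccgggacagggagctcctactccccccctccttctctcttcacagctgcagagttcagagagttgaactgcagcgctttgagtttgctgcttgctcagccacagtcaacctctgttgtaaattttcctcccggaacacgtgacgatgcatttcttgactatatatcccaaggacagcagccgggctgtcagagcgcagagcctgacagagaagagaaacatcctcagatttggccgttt
Kcnj8: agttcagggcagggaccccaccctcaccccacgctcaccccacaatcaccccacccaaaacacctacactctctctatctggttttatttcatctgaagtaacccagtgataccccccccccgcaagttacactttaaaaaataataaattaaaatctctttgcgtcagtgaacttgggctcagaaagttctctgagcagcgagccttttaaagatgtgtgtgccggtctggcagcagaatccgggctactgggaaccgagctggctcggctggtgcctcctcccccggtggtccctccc
Abcc9: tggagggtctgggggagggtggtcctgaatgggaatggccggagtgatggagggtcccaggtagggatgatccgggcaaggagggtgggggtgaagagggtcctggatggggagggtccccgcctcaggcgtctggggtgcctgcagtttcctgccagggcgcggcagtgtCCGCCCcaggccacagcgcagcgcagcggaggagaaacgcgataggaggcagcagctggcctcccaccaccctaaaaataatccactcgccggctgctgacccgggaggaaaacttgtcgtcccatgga
Kcnk5 holds 3 GC boxes and Abcc9 1, while Kcne4 and Kcnj8 hold none. GC content is 63.7% in Kcnk5, 52.7% in Kcne4, 53.3% in Kcnj8 and 65.7% in Abcc9, with 26, 9, 9 and 16 CpG dinucleotides. Among 17090 promoters of table rows whose start lay within 50 bases of a RefSeq start, 47.3% hold a GC box and 14.1% the nuclear receptor half-site AGGTCA, searched on both strands with overlaps counted once per promoter. The half-site is in none of these 4 windows. Of the 23 tested members with such a promoter, 14 hold a GC box, Kcnk5 being the only called gene among them, and 0 hold the half-site. These are matches of letters in 1 window and say nothing of where the receptor binds.

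Inward rectifiers had 3 of 15 members tested and none called. Kcnj8 dominated the group, with 44.1, 47.5 and 40.7 CPM in DMSO A, B and C and 38.1, 39.1 and 46.2 CPM in OCA A, B and C. The groups overlapped, with OCA C above DMSO A (log2 fold change -0.10, SE 0.10, edgeR adjusted p = 0.622). Kcnj5 and Kcnj4, a G protein-gated and a strong inward rectifier gene, were the other tested members, at 0.335 and 0.654 CPM per kilobase. Kcnj11, which encodes the other pore protein of channels gated by ATP, did not reach the test.

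Abcc9 (NM_021041, chromosome 6, 142587862 to 142702274, minus strand) lies 16247 bases from Kcnj8 on the same strand. Its levels were 172, 170 and 154 CPM in DMSO A, B and C and 128, 152 and 120 CPM in OCA A, B and C. The groups did not overlap, although OCA B and DMSO C were close. The mean was 165 ± 9.63 CPM in DMSO and fell to 134 ± 16.8 in OCA (log2 fold change -0.30, SE 0.08, edgeR adjusted p = 0.0319). That call was lost without OCA A (adjusted p = 0.146), OCA C (0.180), DMSO A (0.136) or DMSO B (0.0932), and with length trend offsets (0.163). Per kilobase, Abcc9 stood at 22.02 CPM in DMSO and 17.8 in OCA, beside 17.3 and 16.2 for Kcnj8. An antisense transcript, 5330439B14Rik, overlaps 1.89% of its exonic bases.

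The pore subunits of voltage-gated potassium channels were low throughout. All 6 tested members had a log2 fold change below 0, beside 6316 of all 12687 tested genes, and none was called. The signs were the same under each other scaling tried, but these scalings use the same counts and give no independent support. Kcnd1 and Kcnq5 had 4.39 ± 0.784 and 8.36 ± 0.99 CPM in DMSO and 4.03 ± 1.14 and 6.84 ± 1.70 in OCA. Kcnh2, which encodes the delayed rectifier of the heart known as hERG, had 1.67 ± 0.560 CPM in DMSO and 0.961 ± 0.15 in OCA (log2 fold change -0.75, SE 0.47).

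Among silent subunits, Kcng2 had few counts, fewer in each OCA library than in any DMSO library, and did not pass the test. It had 16, 10.5 and 18 counts in DMSO A, B and C and 0, 0.5 and 5 counts in OCA A, B and C. The groups did not overlap, and the gene entered the test through the DMSO libraries alone, the only one of the 40 members to do so. Its interval and p-values are therefore given as description only. OCA C held 5 of the 5.5 OCA counts, so leaving it out widens the difference by construction. The depth-scaled ratio of OCA to DMSO was 0.153 (95% exact counting interval 0.0533 to 0.361, for counting error only), with edgeR adjusted p = 0.0526. Of 17 alternatives that gave a value, 4 called it: leaving out OCA C (adjusted p = 0.0188), unrounded counts (0.0482), limma-voom (0.00842) and the replicate letter as a block (0.0450). The other 13 gave adjusted p from 0.0512 to 0.878, among them 0.201 without OCA A, 0.175 without DMSO A and 0.103 with no filter. A transcript on the opposite strand, D330025C20Rik, overlaps 9.10% of its exonic bases. Kcns3, the other silent subunit tested, did not pass.

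Potassium channels activated by calcium or sodium had 4 of 12 members tested and none called. Kcnt2, a sodium-activated channel gene, was the highest at 1.996 CPM per kilobase, followed by the small-conductance channel gene Kcnn1 at 1.33. Kcnn1 had 6.00 ± 0.583 CPM in DMSO and 4.75 ± 0.347 in OCA without overlap between the groups (log2 fold change -0.34, SE 0.24, edgeR adjusted p = 0.466). Kcnma1, the pore gene of the large-conductance channel of smooth muscle, had 12.5 counts over the DMSO and 17 over the OCA libraries and was not tested. Its beta subunit gene Kcnmb1 was tested, with 59.5 and 48 counts, and did not pass.

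In voltage-gated calcium channels, the summed levels of alpha2delta and beta subunits stood above that of the pores, and the summed level of gamma subunits below it. Cacna1a, which encodes the pore of the P/Q-type channel of nerve terminals, was the only pore gene tested, at 4.15 CPM per kilobase. It had 32.6 ± 0.451 CPM in DMSO and 32.7 ± 3.81 in OCA, and its sign changed with the processing. The L-type pore gene Cacna1c, the main one of smooth muscle, had 32.5 counts over the DMSO and 31.5 over the OCA libraries, and was too low to test. Cacna1d had 20 counts in OCA A and 11 in DMSO A, against at most 4 in the other libraries. Summed per kilobase, pore subunits stood at 4.30 ± 0.0673 CPM in DMSO, alpha2delta subunits at 12.9 ± 1.20, beta subunits at 20.6 ± 1.26 and gamma subunits at 1.90 ± 0.127. Cacnb1 (0.928 over the 6 libraries) and Cacnb4 (0.107) were below Cacna1a.

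Cacna2d1, the alpha2delta subunit gene whose product binds gabapentin, was lower in OCA without passing the test. It had 105, 93.6 and 87.6 CPM in DMSO A, B and C and 85.8, 83.0 and 74.4 CPM in OCA A, B and C. The groups were apart by the small gap between DMSO C and OCA A (log2 fold change -0.23, SE 0.08, edgeR adjusted p = 0.0995), and with length trend offsets the log2 fold change was -0.10. The beta subunit genes did not pass either: Cacnb3 had 36.4 ± 3.51 CPM in DMSO and 38.5 ± 2.30 in OCA, and Cacnb2 26.3 ± 1.75 and 24.6 ± 3.59. Cacng7, the only tested gene of the gamma and AMPA receptor regulatory family, was at 1.73 CPM per kilobase. In all, none of 7 tested calcium channel genes was called, and Cacna2d1 was the 1 with an unadjusted p under 0.05, beside 19.0% of all tested genes.

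TRP channels had 7 of 21 members tested and none called by edgeR, with 6 of the 7 above 0, or 7 of 7 with length trend offsets, under which Trpm7 changed sign. Of all 12687 tested genes, 6371 lay above 0 in the fit reported. Trpm4, whose channel opens on intracellular calcium and conducts monovalent cations, had the smallest p of the family. It stood at 36.3, 33.4 and 35.0 CPM in DMSO A, B and C and at 48.6, 40.3 and 35.5 CPM in OCA A, B and C. OCA C lay within the DMSO values, so the groups overlapped (log2 fold change 0.25, SE 0.11, edgeR adjusted p = 0.208). Trpv2 had 66.6 ± 5.19 CPM in DMSO and 75.4 ± 10.6 in OCA (log2 fold change 0.18, SE 0.09), with OCA A at 87.6 and the other OCA libraries at 68.8 and 69.8. Trpm7 had 140 ± 7.96 and 129 ± 9.17 CPM (log2 fold change -0.12, SE 0.07), and Trpc1, often linked to store-operated calcium entry, 22.3 ± 1.78 and 23.5 ± 1.81. Trpm6, the magnesium channel gene related to Trpm7, had 6.45 CPM in OCA A against at most 3.42 in the other libraries. OCA A was the highest OCA library in 6 of the 7 tested TRP genes, beside 34.7% of all tested genes, and DMSO A the highest DMSO library in 5, beside 35.9%. Without OCA A the log2 fold changes were 0.12 for Trpm4, 0.06 for Trpv2 and 0.06 for Trpm6, which had 0.67 with all libraries. The receptor-operated Trpc6 had 19 and 13.5 counts and the osmosensitive Trpv4 15 and 14 counts over the DMSO and OCA libraries, and neither was tested. The row of Trpc2 shares 97.5% of its exonic bases with the read-through gene Xntrpc, so its values are uncertain. The counts given above for the tested TRP genes include it.

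Among the 77 untested members with counts, the exact 95% interval of the depth-scaled count ratio lay above 1 for 2 and below 1 for 5. The share over all untested genes was not computed, so these counts cannot be read as particular to the members. These intervals cover counting error only and no spread between libraries, and the genes were picked out after their values were seen. Trpm2, a channel gene opened by ADP-ribose, had 7.5, 7 and 11 counts in DMSO and 3, 2 and 3 in OCA. Kcnj2 had 11 counts over DMSO and 1 over OCA, and Kcne1 13 and 1. Kcnmb2, a beta subunit gene of the large-conductance channel, had 0 counts in DMSO and 6, 5.5 and 0 in OCA A, B and C.

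Precision followed depth. For the 14 tested members at 10 CPM or more the median standard error of the log2 fold change was 0.10, and the uncalled ones lay between -0.23 and 0.25. For the 26 below 10 CPM the median was 0.45, and of these Kcnk3 alone was called, beside 1.37% of all tested genes at that level. At 10 CPM or more 2 of the 14 were called, beside 6.34% of all tested genes at that level.

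Genes that act with these channels were counted from lists. Chloride channel genes had 18 of 28 tested, with 2 higher and none lower (11.1% called, beside 5.20% of all tested genes). Ano1, the calcium-activated chloride channel of smooth muscle and pacemaker cells, had 91.0 ± 7.30 CPM in DMSO and rose to 113 ± 2.10 in OCA (log2 fold change 0.31, SE 0.07, edgeR adjusted p = 0.0135). It lost the call without DMSO B (adjusted p = 0.0678) or DMSO C (0.0757). Lrrc8d, a subunit of the volume-regulated anion channel, rose from 82.0 ± 0.962 to 101 ± 8.09 CPM (edgeR adjusted p = 0.0217), a call lost on leaving out OCA C (0.130) or any 1 DMSO library (0.0562 to 0.0856). The lists of store release and entry, calcium pumps, the sodium pump, calmodulin and other cation channels had no call. Store release and store-operated entry had 11 of 14 rows tested with a median log2 fold change of -0.04, and its most abundant member by CPM, the store sensor gene Stim1, had 346 ± 10.7 CPM in DMSO and 345 ± 8.41 in OCA. Calcium pumps and exchangers had 8 of 17 tested (median 0.04), with the endoplasmic reticulum pump gene Atp2a2 at 496 ± 24.4 and 492 ± 21.9 CPM. The sodium pump list had 6 of 11 tested (median 0.05), and calmodulin, calcineurin and NFAT genes 19 of 21 (median -0.02). Regulators of potassium channels had 2 of 10 tested, with Abcc9 the 1 called. Other cation channels outside the rule had 15 of 27 tested, none called, and 9 whose groups did not overlap, 5 higher and 4 lower (60% of the list, beside 23.0% of all tested genes). The mechanosensitive channel gene Piezo1 was the most abundant of them by CPM (476 ± 26.4 in DMSO, 408 ± 55.6 in OCA, edgeR adjusted p = 0.161).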

How the data were processed

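RNA sequencing counts of 6 libraries were used, in groups from the labels' treatment field. Per the submitters' processing notes, STAR, HOMER and the mm10 build were used; their versions, settings, strand and multi-mapping rules are not stated there. Per gene, the authors deposited exon counts not adjusted for depth, treated here in edgeR like estimated counts because they come in steps of 0.5, and the exonic length; 0 count columns were left out. Counts were rounded to whole numbers for the test; CPM used the values as deposited. edgeR 4.0.16 in R 4.3.3 (filterByExpr, TMM, glmQLFit, glmQLFTest, two-sided, no replicate block) was fitted to all genes, with Benjamini-Hochberg adjustment over 12687 tested genes and a threshold of 0.05. The standard error is the log2 fold change divided by the square root of F. limma 3.58.1 and DESeq2 1.42.0 were alternatives. In the simulated OCA against DMSO comparison (12687 genes, 50 changed per fold), 56% were recovered at 1.3-fold, 72% at 1.5-fold, 92% at 2-fold and 98% at 3-fold, and 7 unchanged genes were called. Its counts followed the dispersion trend without gene-specific spread. The changed genes were drawn at random from all tested genes, of which 9773 were at 10 CPM or more. Recovery was not measured by level, so these shares cannot be read as recovery among the 26 tested members below 10 CPM. Within each group, every pair of libraries differed beyond sampling noise (chi-square per degree of freedom 4.30 to 7.78). Text names every called member, members at 1 CPM per kilobase or the highest of a role, those with unadjusted p under 0.05, and called or most abundant list genes; other members are named for a role or after their values were seen. Members and lists were chosen with earlier results of these data known. Exon overlaps come from GENCODE M21. Single values of 2 tested members are not reported here. Promoters are shown in place of the planned proteins, which were not used here.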

Additional observations from a re-analysis of the deposited data

How the results depend on the processing

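Kcnk3 was called under all 19 alternatives (log2 fold change 1.76 to 2.38) and Kcnk5 under 18 (0.77 to 1.07), the exception being the test against a fold change of 1.5 (adjusted p = 0.353). Kcne4 was called under 17 (-0.51 to -0.44), missing under that test and without DMSO C (adjusted p = 0.0514). The count of members higher was 1 against a fold change of 1.5, 3 without OCA B and DMSO A together, where Trpv2 joined (adjusted p = 0.0230), and 2 otherwise. The count lower was 0 against a fold change of 1.5, and 2 with limma-voom, no filter, unrounded counts or the replicate block. Leaving out 1 library gave 2 higher and 0 to 2 lower. Cacna2d1 passed without a filter (adjusted p = 0.0391) and under no other alternative; with length trend offsets its log2 fold change was -0.10 (adjusted p = 0.462). Members tested were 114 without a filter and 35 with at least 1 CPM in 3 libraries.

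Over all genes, leaving out 1 library gave 161 to 363 higher and 104 to 758 lower. Against a fold change of 1.5 the counts were 38 and 0, and genes lower were 703 without a filter, 227 with length trend offsets and 605 without OCA B and DMSO A together. The share of higher among called genes was 41.8% in the fit reported, 60.6% with length trend offsets and 32.0% without a filter. With the replicate block 306 genes were higher and 508 lower. Deviations of libraries of the same letter from their group means were little correlated (0.0005, -0.0433 and 0.0535). With 3 libraries a group, these values cannot settle whether the letter pairs cultures, and the labels do not say.

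Signs of uncalled members near 0 changed: Trpm7 (0.0045) and Kcnk6 (0.0097) with length trend offsets, Cacnb2 (0.038) and Kcnk6 (0.070) without OCA B and DMSO A together, and Cacna1a with limma-voom (-0.0020), upper-quartile scaling (-0.0067), library totals (-0.0054), no filter (-0.0025), the replicate block (-0.0016) and without OCA B and DMSO A together (-0.080). Leaving out 1 library turned Kcnip3 (-0.139 to 0.011), Kcnk6 (-0.0895 to 0.0812), Cacna1a (-0.0869 to 0.0778), and Kcnk2 (-0.443 to 0.153). The cause was not tested.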
